A study of Drosophila melanogaster with 13 samples.

Results

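The genes of intraflagellar transport were followed in whole testes of young adult Drosophila melanogaster. They were taken as every gene whose platform symbol starts with IFT or Oseg, together with nompB, rempA and btv, where a probe set was paired with that symbol alone. This gave 14 genes, of 11982 genes on the array with a probe set of their own. By rule a gene's probe set was chosen by measured values, as the one with the highest mean over all arrays. Each of the 14 had exactly 1 such probe set, so this preference made no choice. Within the naming rule the members were thus defined by symbol, not chosen on measured values. The naming rule itself was chosen with earlier results of these data known. The p-values of the members below are therefore not those of a set picked without sight of the data. The testes came from 5 genotypes, with 1 Affymetrix array per sample. There were 3 arrays of aly[2]/aly[5p], 3 of sa[1]/sa[2], 2 of magn[12c]/magn[23b], 2 of magn[12c]/magn[12c];pSC2 and 3 of a red[1], e[1] strain that the labels call WT. All flies were 0 to 1 day old and raised at 25 °C, and seminal vesicles and accessory glands were dissected away. The gene aly encodes a subunit of the testis meiotic arrest complex, sa a testis form of a TBP-associated factor, and magn alleles affect the polyubiquitin gene Ubi-p63E. All 3 genes are required for meiosis in spermatocytes and for the spermatids that follow. The labels do not say what pSC2 is, whether the mutant flies share the WT strain's background, or whether replicates came from separate crosses, so p-values measure the spread between these samples.

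Intraflagellar transport carries building material along the microtubules of a growing cilium. Trains of the IFT-B complex are drawn to the tip by kinesin-2, and IFT-A trains with the dynein-2 motor return to the base. The subunit roles used here come from homology with the complexes of Chlamydomonas and mammals. In the fly the pathway is best known from sensory neurons of touch, hearing and smell, whose cilia need it. The fly sperm tail is assembled in the cytoplasm of the spermatid, and flies without nompB or without the kinesin-2 motor Klp64D still form sperm tails. Which of these genes are transcribed in the testis, and in which of the mutants their levels differ, was therefore asked gene by gene.

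Values are the deposited log2 probe set signals, which bottom out at 2.10. A gene counted as expressed where its signal was above 4, and it was tested when this held in at least 3 of the 13 arrays. Both settings were chosen here and are not detection calls of the array software. Changes are differences between group means on the log2 scale. Mutants were compared with WT in a linear model over all tested genes with limma, in which the 4 magn arrays formed 1 group. A gene is called higher or lower where the Benjamini-Hochberg adjusted p was under 0.05 and the change at least 2-fold. Where all arrays of a group read 4 or less, the fold is a lower bound, taken against 4 and written at least N-fold. All comparisons with WT share the same 3 WT arrays. Precision is limited by the few arrays of each genotype.

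Between 8822 and 9759 of the 18952 probe sets were above 4 on each array. Ubi-p63E read 3.93 and 5.47 in magn[12c]/magn[23b] and 3.88 and 3.59 in magn[12c]/magn[12c];pSC2, against 14.65 to 14.90 in WT, and the sa gene read 5.84 to 6.25 in sa testes, against 10.80 to 11.13 in WT. The aly transcript was not lower in aly testes, at 7.23 to 7.34 against 5.95 to 6.28 in WT, so this level checks no label there. Signal of 18S ribosomal RNA spanned 8.42 to 9.71 in aly, 6.20 to 12.14 in sa and 9.20 to 11.84 in magn, against 6.77 to 6.92 in WT. The 3' minus 5' actin signal spanned 0.85 to 0.97 in aly, 1.06 to 2.24 in sa and 0.54 to 1.82 in magn, against 0.94 to 1.04 in WT. Subtracting from each array the median of its 26 ribosomal protein genes is called ribosomal centring below. It moved every change against WT down by 1.39 in aly, 1.43 in sa and 1.03 in magn. Calls that it ends or turns are therefore marked, except for genes that overlap or flank the members. The median change of all 8719 tested genes was 0.77 in aly, 0.66 in sa and 0.38 in magn, and -0.62, -0.77 and -0.65 after that centring.

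Of the 14 transport genes, 10 were tested, against 72.8% of all genes. All 5 IFT-A genes were among them (IFT43, Oseg1, Oseg4, Oseg6 and rempA), as were 5 of the 8 IFT-B genes (IFT20, IFT52, IFT57, nompB and Oseg5). The dynein-2 heavy chain gene btv was not. Members above 4 in all arrays of a group numbered 9 in aly, 7 in sa and 5 in magn, against 5 in WT, where 59.7%, 66.0%, 65.8% and 63.7% of all genes were. With a threshold of 6 the counts were 8 in aly, 3 in sa and 5 in magn, against 3 in WT, and the shares of all genes 51.4%, 56.3%, 55.8% and 52.6%. By both thresholds aly had the highest count of members and the lowest share of all genes, while sa and magn changed places. Oseg1, Oseg6 and IFT43 were above 4 in all 13 arrays, and 3 members were above 4 in none. Oseg4, Oseg5 and IFT20 passed the filter through the aly arrays alone, which was the case for 0.676% of all genes, and these 3 therefore had to differ between aly and the other groups. Their differences between aly and other groups are given below as descriptions, with no test.

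**Figure D1:**
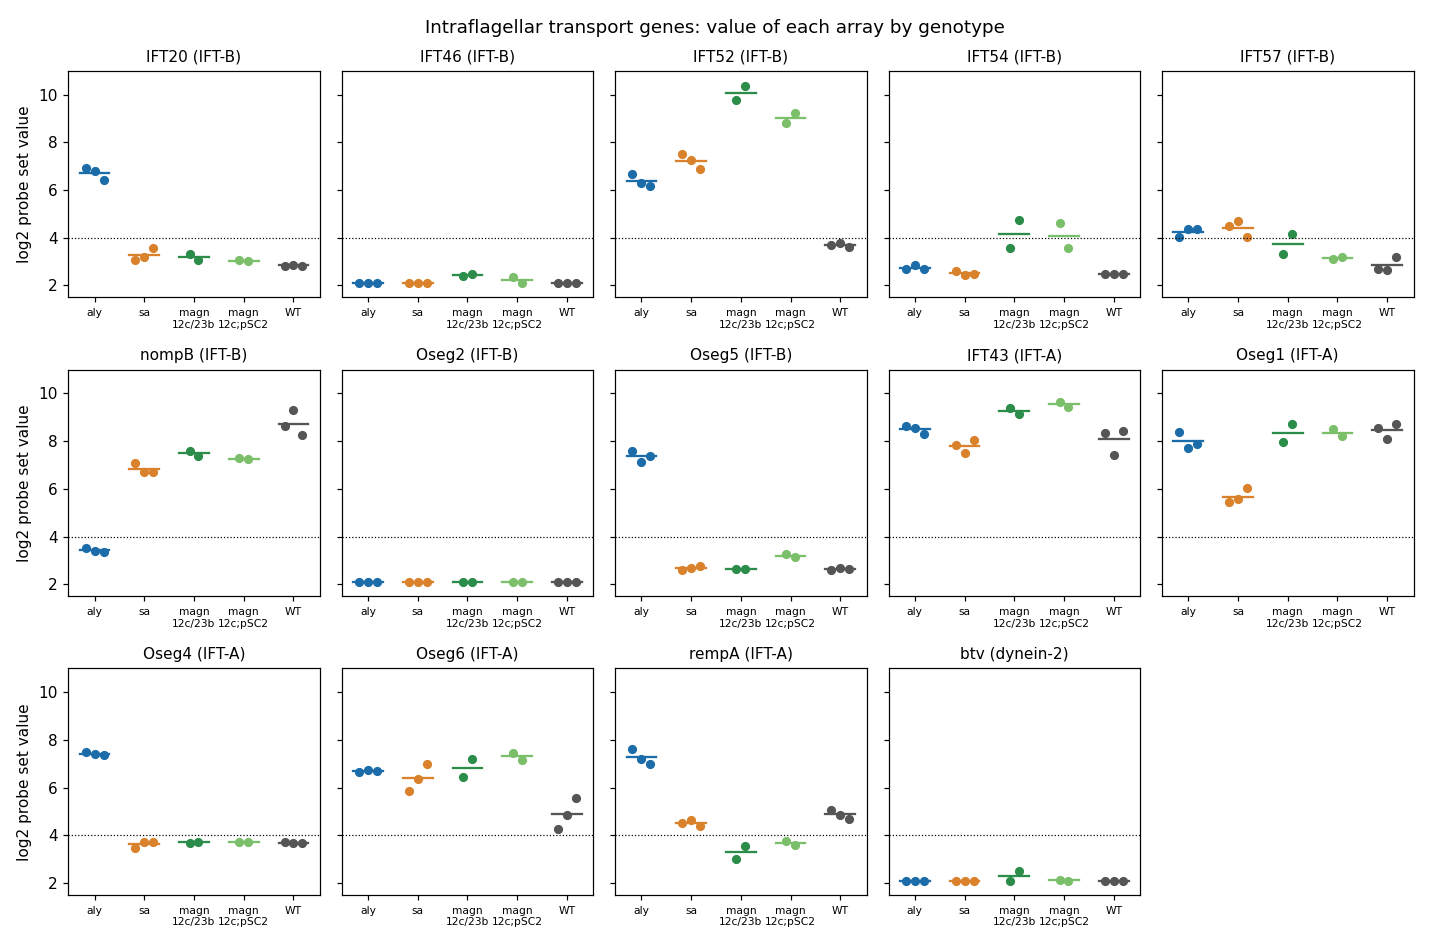
Signal of the 14 transport genes on each of the 13 arrays (vertical axis, log2 probe set value), by genotype on the horizontal axis. Points are arrays, bars are group means and the dotted line marks 4. Oseg4, Oseg5 and IFT20 are above the line in aly alone, nompB is below it in aly alone, and IFT52 is below it in WT alone.

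Of the 10 tested genes 7 were called higher and 1 lower in aly testes than in WT, where 45.5% of all tested genes were called higher and 24.3% lower (69.8% either way). In sa testes 3 were called higher and 2 lower, against 40.8% and 21.3% of all tested genes (62.1% either way). In magn testes 3 were called higher and 2 lower, against 29.2% and 14.3% (43.5% either way). The median change of the 10 genes was 2.10 in aly, -0.01 in sa and 0.28 in magn, and these counts and medians include the 3 genes that had to differ in aly. Ribosomal centring left 5 higher and 2 lower in aly (20.3% and 42.7% of all tested genes), 1 and 6 in sa (9.93% and 43.8%) and 2 and 4 in magn (7.56% and 36.6%). Under it 32.3% of all calls in aly, 18.5% in sa and 17.1% in magn were higher, in place of 65.2%, 65.7% and 67.1%. The counts in sa and magn without that centring lie near the shares of all tested genes. The transport genes did not all move in the same direction. Without that centring IFT52 and Oseg6 were called higher and nompB lower in all 3 mutants, and IFT57 higher in aly and sa. Called in a single mutant were Oseg1 (lower in sa), IFT43 (higher in magn), and Oseg4, Oseg5 and IFT20, which had to differ in aly. The gene rempA was called higher in aly and lower in magn. IFT52 and nompB were the members whose calls against WT stood in all 3 mutants under both scalings. In whole testes a lower signal from fewer cells of a type and from less RNA per cell cannot be told apart.

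Within IFT-B, IFT52 showed the widest range. This gene encodes a subunit of the IFT-B core (probe set 1640025_at, chromosome arm 2L). It read 6.67, 6.31 and 6.15 in aly, 7.50, 7.24 and 6.89 in sa, 9.77 and 10.37 in magn[12c]/magn[23b], 8.83 and 9.23 in magn[12c]/magn[12c];pSC2, and 3.70, 3.78 and 3.62 in WT. The WT arrays were the lowest of all 13, and no 2 of the 5 genotypes overlapped. IFT52 was at least 46.8-fold higher in magn, where it averaged 9.55 ± 0.67 (SD, n = 4) against 3.70 ± 0.08 (n = 3) in WT, a log2 change of 5.85 (SE 0.33, adjusted p = 1.29e-08, limma). It was at least 9.26-fold higher in sa (log2 change 3.51, adjusted p = 7.8e-07, limma) and at least 5.20-fold higher in aly (2.68, adjusted p = 6.51e-06, limma). Under ribosomal centring the changes were 4.82, 2.08 and 1.29 in magn, sa and aly, all still called.

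The level of IFT52 also separated magn from both aly and sa. Magn testes exceeded aly testes by 3.17 (SE 0.33, adjusted p = 9.16e-07, limma) and sa testes by 2.34 (SE 0.33, adjusted p = 4.35e-05, limma). Aly and sa testes did not overlap, but their difference of -0.83 missed the threshold (adjusted p = 0.0591, limma). Both magn combinations were above WT on their own, by 6.37 for magn[12c]/magn[23b] and 5.33 for magn[12c]/magn[12c];pSC2, at least 67.2-fold and 32.6-fold.

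The next IFT-B gene, nompB, ran the other way. It is the fly counterpart of the IFT-B subunit IFT88 and is needed for the cilia of touch and hearing neurons (probe set 1635983_a_at, arm 2L). It read 3.54, 3.38 and 3.37 in aly, 7.10, 6.70 and 6.69 in sa, 7.59 and 7.39 in magn[12c]/magn[23b], 7.28 and 7.26 in magn[12c]/magn[12c];pSC2, and 8.64, 9.32 and 8.25 in WT. All 10 mutant arrays lay below all 3 WT arrays, with the aly arrays under 4. In aly it was at least 26.7-fold lower, at 3.43 ± 0.09 against 8.74 ± 0.54 in WT (SD, n = 3 each; log2 change -5.31, SE 0.28, adjusted p = 4.89e-10, limma). On the log2 scale it fell by 1.91 in sa (SE 0.28, adjusted p = 3.01e-05, limma) and by 1.36 in magn (SE 0.27, adjusted p = 0.00054, limma). These calls stood under ribosomal centring. The aly level was at least 7.11-fold below that of sa (log2 change -3.40, SE 0.28, adjusted p = 1.59e-07, limma), and the magn level at least 10.4-fold above that of aly (log2 change 3.95, SE 0.27, adjusted p = 8.53e-09, limma). The 0.55 by which magn stood above sa was not called (adjusted p = 0.0901, limma).

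Oseg5 and IFT20 were above 4 in aly testes alone. Oseg5 is the fly IFT80, a peripheral IFT-B subunit (probe set 1640383_at, arm 2L). It read 7.58, 7.13 and 7.38 in aly, 2.61, 2.69 and 2.75 in sa, 2.66 and 2.63 in magn[12c]/magn[23b], 3.28 and 3.13 in magn[12c]/magn[12c];pSC2, and 2.61, 2.69 and 2.63 in WT. IFT20, a subunit that in mammals also sits at the Golgi (probe set 1630985_at, arm 2R), read 6.92, 6.79 and 6.40 in aly, 3.08, 3.18 and 3.55 in sa, 3.30 and 3.08 in magn[12c]/magn[23b], 3.05 and 3.01 in magn[12c]/magn[12c];pSC2, and 2.83, 2.87 and 2.81 in WT. Outside aly both genes were under 4 in all 10 arrays. Oseg5 was at least 10.3-fold and IFT20 at least 6.52-fold higher in aly than in WT, and the same bounds held against sa. Neither gene was called in sa or magn against WT, with changes between 0.04 and 0.44. Oseg5 turned to -1.39 and was called lower in sa under ribosomal centring, which subtracts 1.43 from every gene there, although all its sa and WT arrays were under 4.

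IFT57, another peripheral IFT-B subunit (probe set 1639369_at, arm 2L), stayed near the threshold. It spanned 4.04 to 4.36 in aly, 4.02 to 4.69 in sa and 3.12 to 4.17 in magn, against 2.64 to 3.18 in WT. It passed the filter through 3 aly, 3 sa and 1 magn arrays and 0 WT arrays, so its calls against WT lean on the arrays that admitted it. The call of 1.41 in aly and of 1.55 in sa (adjusted p = 0.000728 and 0.000377, limma) amounts to at least 1.19-fold and 1.32-fold against 4. With values under 4 raised to 4 the changes were 0.25 and 0.40, and under ribosomal centring 0.02 and 0.12, none of them called.

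The remaining IFT-B genes were not tested. Oseg2, the fly IFT172 (probe set 1633181_at), read 2.10 in all 13 arrays. IFT46 (probe set 1632286_at) read 2.38 and 2.47 in magn[12c]/magn[23b], 2.34 and 2.10 in magn[12c]/magn[12c];pSC2, and 2.10 in the other 9 arrays. IFT54 (probe set 1641499_at, arm 3R) was above 4 in 1 array of each magn combination, at 3.58 and 4.75 in magn[12c]/magn[23b] and 4.63 and 3.55 in magn[12c]/magn[12c];pSC2. It stayed at 2.70 to 2.85 in aly and 2.45 to 2.59 in sa, against 2.48 to 2.49 in WT. All 4 magn arrays of IFT54 were thus above the other 9, although 2 of them were under 4. A fit without the filter on dim genes called IFT54 higher in magn than in WT (log2 change 1.64, adjusted p = 0.000707, limma). The magn arrays averaged 4.13 ± 0.65 (SD, n = 4), so taken against 4 little of this change remains. Another probe set, 1628761_s_at, is paired with both IFT54 and its neighbour red and spanned 7.56 to 8.92 over all arrays. Its signal has no single gene, and red is one of the genes mutated in the WT strain.

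Among the IFT-A genes, Oseg4 resembled Oseg5 and IFT20. It is the fly WDR35, a peripheral IFT-A subunit (probe set 1629688_at, arm 3L), and read 7.48, 7.43 and 7.36 in aly, 3.49, 3.73 and 3.73 in sa, 3.67 and 3.74 in magn[12c]/magn[23b], 3.72 and 3.72 in magn[12c]/magn[12c];pSC2, and 3.73, 3.67 and 3.70 in WT. All 10 arrays outside aly were under 4. Oseg4 was at least 10.7-fold higher in aly than in WT, and the same bound held against sa and magn. In sa and magn the changes against WT were -0.05 and 0.01, neither called. Ribosomal centring, which subtracts 1.43 and 1.03 from every gene in these comparisons, made them -1.49 and -1.01 and called lower, and with values under 4 raised to 4 both were 0.00.

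The gene rempA went in opposite directions in aly and magn. It encodes the fly IFT140 of the IFT-A core, needed for the cilia of hearing neurons (probe set 1632552_at, arm 2L). It read 7.64, 7.21 and 6.99 in aly, 4.54, 4.64 and 4.39 in sa, 3.02 and 3.55 in magn[12c]/magn[23b], 3.76 and 3.58 in magn[12c]/magn[12c];pSC2, and 5.07, 4.87 and 4.69 in WT. No 2 of the 5 genotypes overlapped, and the order was aly, WT, sa, then magn. It was higher in aly, at 7.28 ± 0.33 against 4.88 ± 0.19 in WT (SD, n = 3 each; log2 change 2.41, SE 0.27, adjusted p = 1.24e-06, limma), and still called at 1.02 under ribosomal centring. In magn it was at least 1.83-fold lower than in WT (log2 change -1.40, SE 0.25, adjusted p = 0.000298, limma). With values under 4 raised to 4 the change was -0.88 and not called. Magn testes were at least 9.73-fold below aly testes (log2 change -3.80, SE 0.25, adjusted p = 7.43e-09, limma), and aly testes exceeded sa testes by 2.76 (adjusted p = 8.86e-07, limma). The change of -0.35 in sa against WT was not called (adjusted p = 0.247, limma), or was called lower at -1.79 under ribosomal centring.

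Oseg1, the fly IFT122 of the IFT-A core, set sa apart (probe set 1627247_at, arm 3L). It read 8.37, 7.72 and 7.90 in aly, 5.44, 5.58 and 6.02 in sa, 7.96 and 8.74 in magn[12c]/magn[23b], 8.51 and 8.20 in magn[12c]/magn[12c];pSC2, and 8.57, 8.09 and 8.73 in WT. The 3 sa arrays were below the other 10, and the other 4 genotypes overlapped with their neighbours in level. The sa level of 5.68 ± 0.30 was below the WT level of 8.46 ± 0.34 (SD, n = 3 each; log2 change -2.79, SE 0.29, adjusted p = 1.08e-06, limma). The sa level was also below those of aly and magn, which exceeded it by 2.32 (SE 0.29, adjusted p = 1.13e-05, limma) and 2.67 (SE 0.27, adjusted p = 2.64e-06, limma). In aly and magn the changes against WT were -0.47 and -0.11 (adjusted p = 0.154 and 0.733, limma), which became -1.86 and -1.14 and were called lower under ribosomal centring.

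Oseg6, the fly WDR19 of the IFT-A core (probe set 1628733_at, arm 2R), was called higher in all 3 mutants, but only in magn under both scalings. It read 6.64, 6.75 and 6.70 in aly, 5.85, 6.37 and 7.01 in sa, 6.45 and 7.22 in magn[12c]/magn[23b], 7.47 and 7.18 in magn[12c]/magn[12c];pSC2, and 4.28, 4.84 and 5.58 in WT. Every mutant array was above every WT array, and the mutant groups overlapped in level. The log2 change was 1.80 in aly (SE 0.38, adjusted p = 0.000607, limma), 1.51 in sa (SE 0.38, adjusted p = 0.00262, limma) and 2.18 in magn (SE 0.36, adjusted p = 0.000142, limma). Under ribosomal centring it was 0.41 and 0.08 in aly and sa, not called, and 1.15 in magn, still called.

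IFT43, a small peripheral IFT-A subunit (probe set 1637810_at, arm 2L), was well above 4 in every genotype. It spanned 8.29 to 8.65 in aly, 7.50 to 8.06 in sa and 9.12 to 9.65 in magn, against 7.44 to 8.41 in WT. Only the magn arrays were clear of WT, by 1.33 (SE 0.26, adjusted p = 0.000499, limma), or 0.30 and not called under ribosomal centring. Magn also exceeded sa, by 1.60 (SE 0.26, adjusted p = 0.000125, limma). The changes of 0.42 in aly and -0.27 in sa were not called (adjusted p = 0.173 and 0.377, limma), and that of sa was called lower at -1.71 under ribosomal centring.

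The btv gene, which encodes the dynein-2 heavy chain and is needed for hearing (probe set 1638983_at, arm 2L), read 2.49 in 1 array of magn[12c]/magn[23b] and 2.10 to 2.13 in the other 12 arrays. It was not tested.

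**Figure D2:**
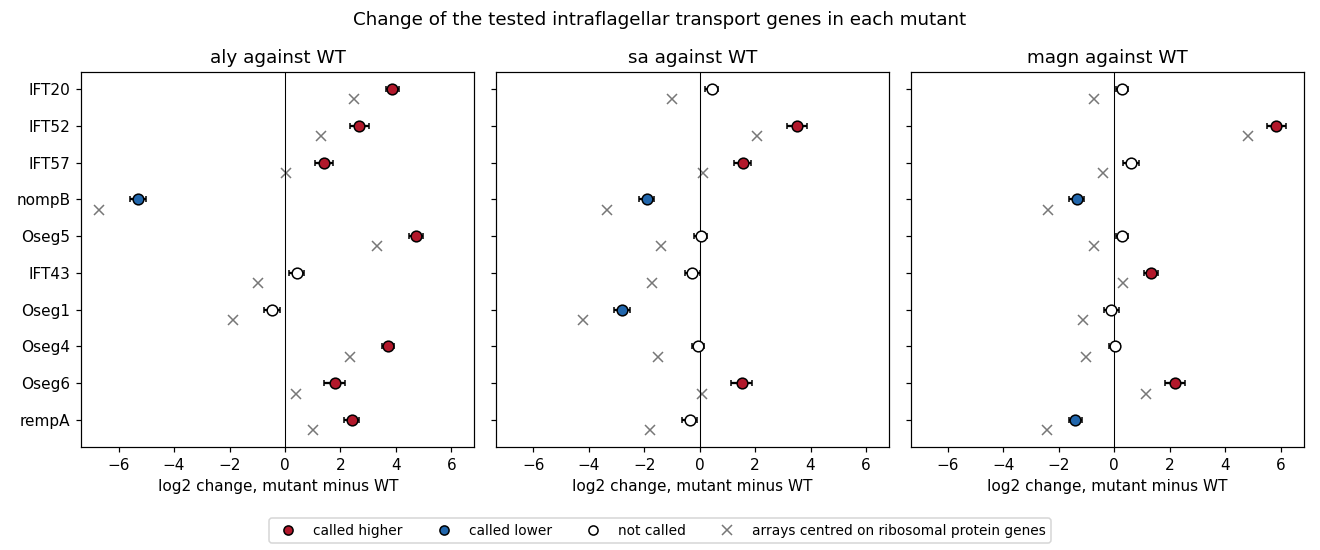
Log2 change against WT of the 10 tested transport genes (horizontal axis, mutant minus WT), with 1 panel per mutant. Circles are limma estimates with SE, coloured where called, and crosses are the same changes under ribosomal centring. IFT52 is to the right of 0 and nompB to the left in all 3 panels by both scalings, whereas the call differs between the scalings for IFT57, Oseg6 and Oseg1 in aly, for IFT57, Oseg6, Oseg5, IFT43, Oseg4 and rempA in sa, and for IFT43, Oseg1 and Oseg4 in magn.

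Set directly against each other, the mutants differed in 6 of the 10 tested genes between aly and sa, 5 higher and 1 lower in aly, where 18.6% of all tested genes were called higher and 20.7% lower (39.3% either way). Oseg4, Oseg5 and IFT20, which had to differ, are 3 of the 5 higher in aly. Between magn and aly 6 genes were called, with IFT52 and nompB higher in magn and IFT20, Oseg5, Oseg4 and rempA lower, against 25.8% and 33.4% of all tested genes (59.1% either way), and 3 of these 4 again had to differ. These counts are therefore not read against the shares of all genes. Between magn and sa 4 were called, with IFT52, IFT43 and Oseg1 higher in magn and rempA lower, against 18.6% and 19.2% (37.8% either way). The fall of rempA in that comparison, 1.04 on the log2 scale and at least 1.44-fold, was not called without sa replicate 2, without magn[12c]/magn[23b] replicate 1, or under ribosomal centring (-0.64), centring on all tested genes (-0.98) or values under 4 raised to 4 (-0.52). With that centring the calls were 5 higher and 1 lower between aly and sa (19.5% and 20.0% of all tested genes), 3 and 4 between magn and aly (30.0% and 25.3%) and 4 and 0 between magn and sa (24.8% and 9.79%). Of all calls, 54.3% in place of 43.6% were then higher in magn than in aly, and 71.7% in place of 49.3% higher in magn than in sa. The added calls were IFT43 higher in magn than in aly, at 1.27, and Oseg6 higher in magn than in sa, at 1.07.

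The 2 magn combinations were compared in a fit with 5 groups. Only IFT52 was called, lower in magn[12c]/magn[12c];pSC2, at 9.03 ± 0.28 against 10.07 ± 0.43 in magn[12c]/magn[23b] (SD, n = 2 each; log2 change -1.04, SE 0.31, adjusted p = 0.0387, limma). In that comparison 2.14% of all tested genes were called higher and 7.94% lower (10.1% either way), or 1.08% and 9.98% under ribosomal centring, which took the share of higher calls to 9.75% in place of 21.3%. The call was lost without any 1 of 6 arrays and in a fit of these 4 arrays alone (adjusted p = 0.0791, limma). The summed signal of 6 accessory gland genes, all 6 of them expressed, was 15.56 to 15.77 in magn[12c]/magn[12c];pSC2, against 12.43 to 12.68 in magn[12c]/magn[23b], and its part in the difference of IFT52 was not tested. The remaining 9 genes differed by -0.60 to 0.56 between the combinations. Against WT both combinations called IFT52, IFT43 and Oseg6 higher and nompB and rempA lower. In those comparisons 25.5% of all tested genes were higher and 12.4% lower in magn[12c]/magn[23b] (37.9% either way), and 32.2% and 16.8% in magn[12c]/magn[12c];pSC2 (49.0% either way).

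Markers of germ cell stages and of other tissues moved with the genotypes as well. Summed signals are the log2 of the sum of linear values. Of 6 spermatid genes (dj, djl, ProtA, ProtB, Mst77F and fzo) 6 were called lower in aly, 6 in sa and 0 in magn, where 24.3%, 21.3% and 14.3% of all tested genes were. Under ribosomal centring 6, 6 and 2 were called lower, against 42.7%, 43.8% and 36.6% of all tested genes. The 2 in magn were ProtA at -1.41 and ProtB at -1.75. The summed signal of the 6 genes was 10.04 to 10.45 in aly, 13.68 to 14.36 in sa and 15.93 to 16.41 in magn, against 16.25 to 16.44 in WT. The summed signal of 4 genes of spermatogonia (bam, zpg, bgcn and vas, the last at or below 4 in all arrays) was 12.05 to 12.11 in aly, 11.01 to 11.16 in sa and 10.17 to 10.85 in magn, against 10.59 to 10.79 in WT. In WT that sum is mostly bgcn, which averaged 10.65, whereas bam averaged 5.17 and zpg 5.25. The bam gene alone rose in every mutant, by 4.85 in aly, 3.56 in sa and 2.19 in magn, and zpg rose by 3.53 in aly and 2.52 in sa, all called under ribosomal centring too. The aly arrays had the lowest spermatid sum and the highest spermatogonial sum, beside the highest rempA and the lowest nompB. Oseg4, Oseg5 and IFT20 were also highest in aly, which the filter that admitted them fixed in advance. Other tested members did not follow aly: by group mean IFT52, IFT43 and Oseg6 were highest in magn, IFT57 in sa and Oseg1 in WT. The sum of 4 sheath muscle genes, all 4 tested, was 8.85 to 9.49 in aly, 9.65 to 10.14 in sa and 10.66 to 11.11 in magn, against 11.06 to 12.24 in WT. Its members differed: Msp300 and sls had changes of -5.71 and -5.98 in aly, both called, while Tm2 and up had -0.30 and 0.14, not called (-1.69 and -1.25, called lower, under ribosomal centring). In sa Msp300 and sls had -4.11 and -1.82, both called, and in magn Msp300 alone was called, at -1.70. Msp300 has 6 probe sets and sls 3, of which the one with the highest mean was used, and the others are not shown. The 6 accessory gland genes summed to 11.80 to 12.44 in aly, 12.81 to 14.15 in sa and 12.43 to 15.77 in magn, against 13.01 to 16.41 in WT. Transcripts of gland genes were thus read in every genotype, with a wide spread within magn and WT, although the glands were dissected away. Of 4 cyst and hub cell genes, tj, zfh1 and upd1 were at or below 4 in every array, and with eya they summed to 8.67 to 9.35 in aly, 9.32 to 9.50 in sa and 9.09 to 9.77 in magn, against 8.19 to 9.29 in WT. The part of any of these in the transport genes was not tested.

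Sensory neurons, the cells best known for these genes, were looked for by their markers. All 6 markers of ciliated sensory neurons (nan, iav, nompC, nompA, Orco and Gr21a) were at or below 4 in every array. Of 5 general neuronal genes, elav, Snap25 and para were at or below 4 in every array, and with nSyb and brp the list summed to 8.08 to 8.42 in aly, 8.63 to 8.85 in sa and 7.17 to 7.84 in magn, against 8.34 to 8.99 in WT. These 2 genes did not move together. In aly nSyb rose by 1.33 (-0.06, not called, under ribosomal centring) and brp was at least 16.8-fold lower. In sa nSyb rose by 1.27 (-0.16, not called, under that centring), and brp was not called at -0.83, or was called lower at -2.27 under it. In magn nSyb was at least 6.61-fold lower, and brp was not called at -0.62, or was called lower at -1.65 under it.

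Of 4 kinesin-2 and cytoplasmic dynein genes listed as motors, 3 were tested. Of these, 3 rose in aly, 3 in sa and 2 in magn, where 45.5%, 40.8% and 29.2% of all tested genes rose. Their median changes were 3.63, 2.22 and 1.45, the last being that of Dlic. Ribosomal centring left 2, 1 and 1 called higher, against 20.3%, 9.93% and 7.56% of all tested genes. Kap3, the non-motor subunit of kinesin-2, averaged 10.10 ± 0.09 in aly (SD, n = 3), spanned 8.02 to 8.39 in sa and 6.86 to 8.07 in magn, and read 4.49 to 5.56 in WT, with no overlap between the mutants and WT. It changed by 5.10 in aly (SE 0.34, adjusted p = 5.52e-09, limma), 3.19 in sa and 2.41 in magn, and all 3 calls stood under ribosomal centring. Klp68D, a motor subunit of kinesin-2, rose by 3.63 in aly and 2.22 in sa, the second of which became 0.79 and was not called by that centring, and its change of 0.68 in magn was not called (adjusted p = 0.0549, limma). Dlic, a light intermediate chain of cytoplasmic dynein, rose by 1.95, 1.18 and 1.45 in aly, sa and magn, and none of the 3 calls stood after that centring. Whether Dlic serves this transport, which uses dynein-2, was not examined. Kif3C, a further kinesin-2 motor, was above 4 in 1 array, and Klp64D was not analysed here.

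The remaining ciliary machinery was mixed. None of the transport genes with other names (Ttc30, Cluap1 and CG3769) was tested, although CG3769 read 6.11, 3.87 and 4.40 in aly and at most 2.22 elsewhere. Of 7 genes of the BBSome, a cargo adaptor of the transport, and of ciliary small GTPases, 2 were tested, and dnd rose by 1.06 in aly (-0.33, not called, under ribosomal centring). BBS4 read 5.27 and 4.92 in magn[12c]/magn[12c];pSC2 and at most 2.16 elsewhere. Rfx, a regulator of ciliary genes in sensory neurons, had a change of -0.73 in aly (not called, or -2.12 and called lower after that centring) and fell by 1.00 in sa and by 1.57 in magn, while fd3F, its partner in hearing neurons, read 2.10 to 2.34 in all arrays.

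Genes of the transition zone and basal body, structures that sperm tails do use, were tested in 13 of 13 cases. In aly 7 were called higher and 3 lower, in sa 7 and 2, and in magn 5 and 0, with median changes of 1.41, 1.19 and 0.93. Over all tested genes 45.5% were higher and 24.3% lower in aly, 40.8% and 21.3% in sa, and 29.2% and 14.3% in magn, so the list's counts in aly lie near the shares of all genes. Ribosomal centring left 3 higher and 4 lower in aly, 1 and 5 in sa and 1 and 3 in magn. The shares of all tested genes under it were 20.3% and 42.7%, 9.93% and 43.8%, and 7.56% and 36.6%. Sas-4, needed to build centrioles, changed by 5.23 in aly and 2.70 in sa, and the transition zone gene Mks1 by 4.21 in aly and 2.12 in sa. In magn the changes of these 2 were 0.93 and -0.33, neither called. Under that centring Mks1 was called lower in magn, at -1.36, and its call in sa was lost, at 0.68. B9d1, of the same zone, rose by 2.72 in aly, 1.65 in sa and 1.01 in magn, the last 2 not called by that centring, at 0.22 and -0.02. Cep89, a gene of the centriole's appendages, fell by 5.98 in aly and by 2.21 in sa.

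Most axoneme genes of spermatids fell in aly and sa. Of 12 such genes off the Y chromosome, 11 were tested, and 10 fell in aly, 10 in sa and 6 in magn (24.3%, 21.3% and 14.3% of all tested genes), with median changes of -6.82, -2.31 and -1.13. Tektin-A, a protein of the microtubule wall, was at least 790-fold lower in aly, and fell by 2.24 in sa and by 2.10 in magn. The axoneme genes hmw and lobo were at least 302-fold and 254-fold lower in aly, and the dynein intermediate chain gene Dic61B at least 83.0-fold. In sa the changes of hmw, lobo and Dic61B were -3.42, -7.99 and -3.14, all called. In magn hmw fell by 1.13, and the changes of lobo and Dic61B were -0.06 and 0.30, not called. In magn 1 axoneme gene was called higher, tilB, by 1.45 (0.43, not called, under ribosomal centring), and it is named here after its value was seen. After that centring 10 of the 11 genes were called lower in aly, 10 in sa and 8 in magn, against 42.7%, 43.8% and 36.6% of all tested genes.

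**Figure D3:**
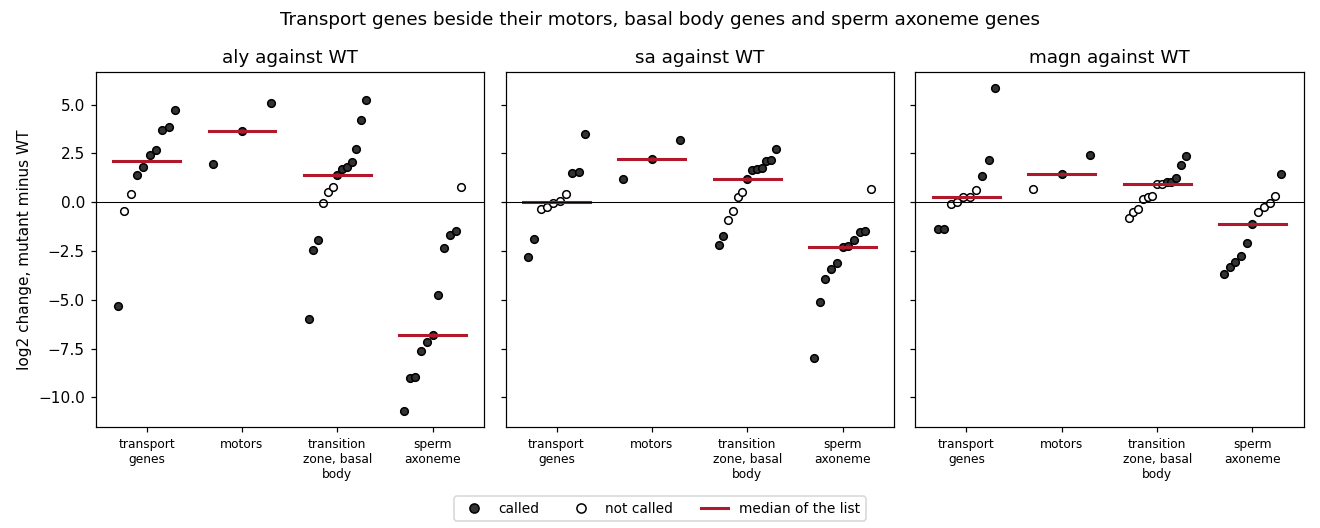
Log2 change against WT (vertical axis, mutant minus WT) of the 10 tested transport genes beside 3 motor genes, 13 transition zone and basal body genes and 11 sperm axoneme genes, 1 panel per mutant. Points are genes, filled where called, and red bars are list medians. In aly the transport and motor medians of 2.10 and 3.63 lie above 0 and the axoneme median of -6.82 below it; the transport median is 0.71 under ribosomal centring, and 3 of the 10 transport genes entered the test through aly alone.

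For each tested member, the 3 named genes with the most similar profile were taken, by the root mean square difference over the 13 arrays after each gene was centred on its own mean. The 3 genes above 4 in aly alone resemble each other through the filter that admitted them. IFT20 and Oseg4 differed by 0.22, where IFT20's own spread around its mean was 1.54, and Antdh was within 0.25 of IFT20, 0.19 of Oseg4 and 0.36 of Oseg5. The nearest to Oseg5 were slam at 0.22 and Or9a at 0.25, and Oseg4 was also near Kif19A at 0.21. The nearest to IFT52 were farther off, with Ect3 at 0.73, eys at 0.82 and bgm at 0.83, beside its own spread of 2.18. The nearest to nompB were boly at 0.36, Tim17b2 at 0.41 and Hsp60B at 0.47, beside a spread of 1.91. To rempA they were PPO3 at 0.39, Nepl3 at 0.41 and Septin5 at 0.42, and to Oseg1 Hat1 at 0.43, CatB at 0.45 and Nep4 at 0.52. Oseg6 was nearest to Plod at 0.40, IFT43 to Uck at 0.31 and IFT57 to PGS1 at 0.27. These are descriptions over 13 arrays that share 5 genotypes.

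The 14 genes lie on 4 chromosome arms, 8 on 2L, 2 on 2R, 3 on 3L and 1 on 3R. In RefSeq's annotation of the assembly Release 6 plus ISO1 MT, 8 of the 14 overlap another gene, and it was not tested whether a probe set reads the overlapping transcript. The changes of overlapping and flanking genes are given here without ribosomal centring. That centring moves each down by 1.39 in aly, 1.43 in sa and 1.03 in magn. Rises close to that shift, such as that of Exo70 in sa, all but vanish under it. Which of their calls stand, end or arise under it was not examined. Oseg4 overlaps drpr, which was not called in any mutant (changes of 0.42, 0.64 and 0.45 in aly, sa and magn). Oseg5 overlaps CG31674, which rose by 2.77 in aly and 1.16 in sa, and IFT20 overlaps CG10395, which rose by 2.73, 2.26 and 2.23. In sa and magn CG10395 was thus called higher where IFT20 was not called. Oseg1 overlaps Exo70, which rose by 1.52 in sa where Oseg1 fell by 2.79, and CG13667, which was not called in any mutant. The gene rempA overlaps Tspo, which was called higher in aly, where rempA was too (1.21, with 0.98 in sa and 0.63 in magn, not called). IFT54, not tested, overlaps su(Hw), which rose by 2.18 in aly and 2.84 in magn. IFT43 overlaps CG6153, not called in any mutant, and btv overlaps CG5674, which rose by 2.13, 2.16 and 1.45 in aly, sa and magn. IFT52 and nompB overlap no gene in that table, and the neighbour of IFT52, COX5B, rose by 1.69 in aly and 1.49 in sa, with 0.68 in magn, not called.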

How the data were processed

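The deposited values are log2 probe set signals, made by the authors with GCRMA, which corrects background and normalizes, per the submitters' processing notes; its version and the genome build are not given in the sources used here. Because GCRMA leaves dim probe sets near a common floor, changes of dim genes are understated. Probe sets were named from the platform annotation, and 13647 of 18952 have 1 symbol. Genes above 4 in at least 3 arrays (8719) were fitted with limma 3.58.1 in R 4.3.3 (lmFit, eBayes with trend) over all 13 arrays, with groups aly, sa, magn and WT, and again with 5 groups. P-values were adjusted over all tested genes. The fit was tested on simulated data of brighter genes without a floor, with changes placed in aly. That test therefore does not cover dim genes. Tables were made in Python 3.11.15 (pandas 2.3.3, numpy 2.4.6) and figures with matplotlib 3.10.9.

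The members and lists were chosen with earlier results of these data known. The text names every member, up to 4 called genes of each list with the largest change, Klp64D, Klp68D, Kap3, Rfx and fd3F, the mutated genes, marker genes, and per tested member the 3 genes of most similar profile, without bare CG or CR symbols. Other genes are named where a count or an overlap needed it, after their values were seen. The titles share replicate numbers. Of 23 same-numbered pairs 7 correlated above 0.1 (range -0.27 to 0.24), so the numbers were not used to pair arrays. Alternatives covered the filter, the normalization and centring, the variance model, the fold minimum, the probe set, the arrays fitted, the replicate block and leaving out each array. No sequences are shown, since no sequence of these genes was at hand.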

Additional observations from a re-analysis of the deposited data

Results flagged for a closer look

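The signal of btv in magn was one array far from the rest: magn[12c]/magn[23b] replicate 2 read 2.49, against 2.10 to 2.13 in the other 3 magn arrays, a gap of 0.934 of the group's range, past Dixon's critical value for 4 samples. All 4 values are near the floor of the arrays, 13 members were examined in this way, and chance alone marks about 1 in 20 groups.

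The change of IFT52 against WT differed between the 2 magn combinations, by -1.04 on the log2 scale for magn[12c]/magn[12c];pSC2 minus magn[12c]/magn[23b] (adjusted p = 0.0387, limma, n = 2 each). Both combinations stood above all WT arrays.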

How the results depend on the processing

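Of 70 values (10 tested members in 7 comparisons) 35 were called, and 27 of the 35 calls stood under every alternative run. Both counts include the calls of Oseg4, Oseg5 and IFT20 between aly and the other groups. These had to differ, so their standing under every alternative is no sign of robustness. Ribosomal centring ended 6 calls. It also gave -1.39 for Oseg5 in sa and -1.01 for Oseg4 in magn against WT, of opposite sign to the uncalled 0.04 and 0.01. All arrays of these groups were under 4 for these genes, so the values restate the constant that the centring subtracts, and both are 0.00 with values under 4 raised to 4. Leaving out 1 array ended 2 calls. The fall of rempA in magn against sa spanned -1.14 to -0.89. The count of members called between the magn combinations was 1, and 0 with only the groups compared. It spanned 0 to 1 over the arrays left out, and was 0 without aly replicate 2 or 3, sa replicate 2, magn[12c]/magn[23b] replicate 2, or either magn[12c]/magn[12c];pSC2 array, where IFT52 spanned -1.35 to -0.74. A lone array left in a combination was taken to vary like the other groups. The replicate block left the count in aly against WT at 8 and changed none of the 70 calls. A filter at 6 dropped IFT57. Array weights ended the call of Oseg6 in sa, and centring on all tested genes that of IFT43 in magn. Members near the floor, such as btv, IFT46 and Oseg2, give no bound on their true difference.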
